A study of Mus musculus with 4 samples.

Results

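The regions described here were enriched in nascent strands of 300–800 nt and not in those of 100–600 nt. The cells were the untreated female mouse embryonic stem (ES) cell line PGK12.1. Their nascent strands and their total DNA were labelled with different dyes and hybridised together to 4 arrays, 2 per strand size. Each region is one tiled probe of 60 bases from chromosome 3 or from either of 2 stretches of the X chromosome. Members were selected on their measured log2 ratio (nascent strand signal over genomic DNA signal), centred on the median of each array. They lay in the top 10% on both 300–800 nt arrays and below the median on both 100–600 nt arrays. This rule found 503 of 19805 regions (2.54%), out of 1822 regions that were in the top 10% on both 300–800 nt arrays. The cells were one asynchronous line. The study's text calls the 300–800 nt hybridisations biological replicates.

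Replication starts at origins (ORIs), where short DNA chains are laid down on both strands behind an RNA primer and grow outwards. Size-selected, exonuclease-resistant strands are therefore richest close to an origin, and strands of the shortest class map closest to it but are diluted by Okazaki fragments, which come from the whole genome. In mammalian cells many efficient origins lie at CpG island promoters. A strand longer than the spacing of the probes (mean 278 bp within a fragment) can reach neighbouring probes. The shortest class also holds strands below this spacing. Any other region lay within 800 bp in the same fragment for 354 of the 503 members (70.4%), and the remaining members have no such neighbour to compare. Whether members lie at origins was not tested.

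The dyes were not balanced between the fractions. Nascent strands carried Cy5 on both 100–600 nt arrays and Cy3 on both 300–800 nt arrays, and the fractions also differed in slide, print design, software version and dye normalisation. Strand size and these technical features cannot be told apart. Seen by dye, the rule required a Cy3 over Cy5 ratio in the top 10% on the 300–800 nt arrays and above the median on the 100–600 nt arrays. The median log2 ratio of Cy3 over Cy5 in the 503 regions was 0.56 and 0.47 on the 100–600 nt arrays and 1.40 and 1.42 on the 300–800 nt arrays, relative to all regions. In the 167 regions that were in the top 10% on all 4 arrays, the same ratio was -0.70 and -0.95 on the 100–600 nt arrays and 1.47 and 1.49 on the 300–800 nt arrays. The rules fix these signs in both sets, so they say nothing of the dye.

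The 8 members with the widest gap between the fractions are printed first, as the extreme of the set and not as typical members. The gap is the lower of both 300–800 nt ratios minus the higher of both 100–600 nt ratios. Probe sequences run 5′ to 3′ as the arrays list them. Capitals mark each CTCC, the 4-base word with the greatest excess in the members. The word was chosen after its values were seen. The fragment number and the offset in bp along the fragment are those of the probe names, which give no genome coordinate. All 8 lie on the X chromosome.
fragment 64393, offset 120: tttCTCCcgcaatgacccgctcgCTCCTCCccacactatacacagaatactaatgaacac
fragment 44282, offset 1390: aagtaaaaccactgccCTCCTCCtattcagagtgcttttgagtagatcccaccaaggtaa
fragment 67093, offset 870: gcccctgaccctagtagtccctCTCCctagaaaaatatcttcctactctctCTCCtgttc
fragment 44065, offset 10: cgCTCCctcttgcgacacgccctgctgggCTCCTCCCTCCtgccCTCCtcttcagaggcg
fragment 66889, offset 680: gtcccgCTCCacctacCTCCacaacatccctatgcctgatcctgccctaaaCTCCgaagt
fragment 65507, offset 20: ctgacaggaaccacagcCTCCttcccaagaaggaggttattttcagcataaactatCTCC
fragment 66618, offset 20: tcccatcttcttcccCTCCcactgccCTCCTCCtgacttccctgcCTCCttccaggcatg
fragment 46252, offset 650: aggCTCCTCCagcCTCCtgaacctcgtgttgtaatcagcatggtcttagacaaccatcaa

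All 8 of these probes held CTCC, in 2 to 5 copies, and more cytosine than guanine. Of the 503 members, by contrast, 238 held no CTCC and 182 held 1 copy. Within the members the gap correlated with cytosines minus guanines at r = 0.25. The first, at offset 120 of fragment 64393, had 24 cytosines and 6 guanines. Its log2 ratio was -1.63 and -1.35 on the 100–600 nt arrays and 2.69 and 2.68 on the 300–800 nt arrays, a gap of 4.03. The nascent strand signal was 608 and 3328 in the shorter fraction and 18722 and 19288 in the longer, and the genomic DNA signal was 671 and 3093, then 3132 and 3213. These are processed fluorescence intensities, comparable within an array and not across software versions. The region at offset 20 of fragment 66618 had 31 cytosines, 6 guanines and ratios of -2.60, -2.35, 1.14 and 1.16 in the same order of arrays. Its genomic DNA signal of 53135 on the second 300–800 nt array was the highest of these 8 there, beside 36398 for the 5-copy probe of fragment 44065. The 8 gaps ran from 3.44 to 4.03, and the arrays of a fraction did not overlap with those of the other, which the rule fixes.

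The next sequences belong to members named for their position or for their place in the study's list. The members in fragment 67565 formed one of the 2 pairs with the largest mean gap. The region in fragment 108117 lies, by the study's list, in an intron of Notch2, a receptor of cell-to-cell signalling. The region in fragment 106324 matched the RefSeq promoter sequence of Pias3, an inhibitor of STAT signalling and SUMO ligase, at chr3:96696210-96696269 of GRCm38.p6, on the plus strand and upstream of the start. The last 2 show members with more guanine than cytosine.
fragment 67565, offset 2630: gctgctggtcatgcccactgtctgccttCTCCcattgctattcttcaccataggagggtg
fragment 67565, offset 3060: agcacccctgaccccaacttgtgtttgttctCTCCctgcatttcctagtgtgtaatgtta
fragment 108117, offset 291: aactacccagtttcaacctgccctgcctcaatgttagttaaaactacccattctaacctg
fragment 106324, offset 730: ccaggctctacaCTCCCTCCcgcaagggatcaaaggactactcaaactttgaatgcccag
fragment 106326, offset 530: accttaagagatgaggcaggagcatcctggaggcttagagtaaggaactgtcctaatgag
fragment 65490, offset 560: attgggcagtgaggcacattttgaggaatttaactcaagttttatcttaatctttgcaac

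The ratios of the members were steady on the 300–800 nt arrays and loose on the 100–600 nt arrays. On the first 300–800 nt array they ran from 1.03 through a median of 1.40 to 2.98, and on the second from 1.04 through 1.42 to 3.15. On the 100–600 nt arrays they ran from -2.60 through -0.56 to -0.0019 and from -5.72 through -0.47 to -0.0010. These values chose the members and are given as a description. The median absolute difference between hybridisations was 0.06 in the longer strands and 0.31 in the shorter, against 0.07 and 0.35 over all regions. Over all 19805 regions the arrays of the 300–800 nt fraction, which shared a slide, correlated with r = 0.989, those of the 100–600 nt fraction with r = 0.551, and arrays of different fractions with r between 0.213 and 0.415.

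**Figure D1:**
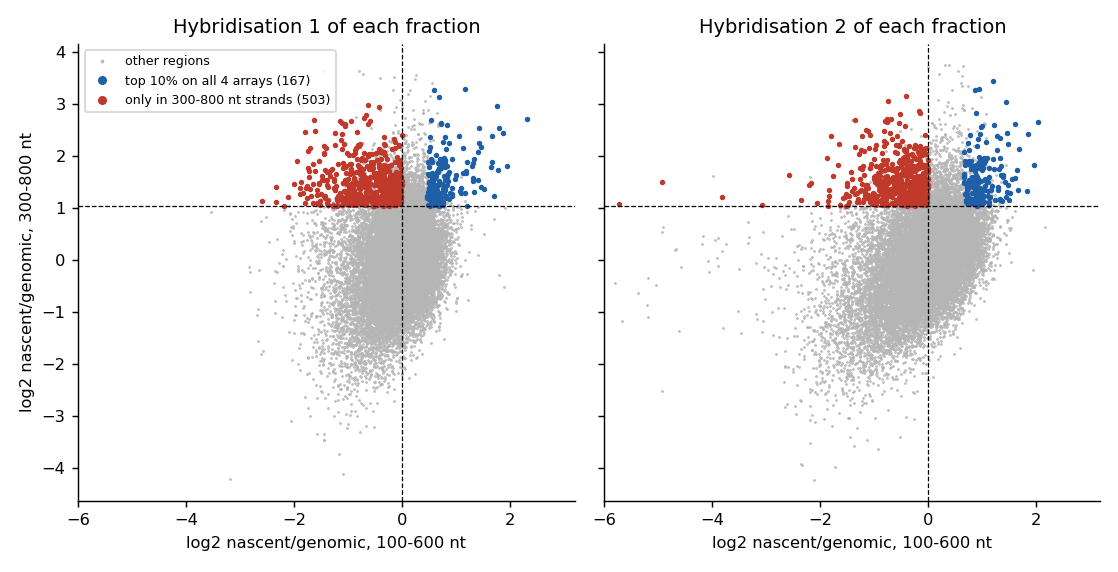
Log2 ratio of nascent to genomic signal in 300–800 nt strands (vertical) against 100–600 nt strands (horizontal), 1 point per region, for each hybridisation. Dashed lines are the 90th percentile and the median that the rule uses. The 503 members (red) fill the upper left corner, and the 167 regions in the top 10% on all 4 arrays (blue) lie to the right.

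The thresholds cut through a continuous cloud. Just inside the upper threshold, the region at offset 1900 of fragment 66695 had 300–800 nt ratios of 1.03 and 1.07, and the one at offset 350 of fragment 67145 had 1.06 and 1.04. Just outside it, offset 630 of fragment 107177 had 1.03 and 1.04 and offset 580 of fragment 106993 had 1.03 and 1.11, with a 90th percentile of 1.03 and 1.04 on the arrays. At the lower threshold, offset 1950 of fragment 66853 (-0.20 and -0.0010 on the 100–600 nt arrays) and offset 340 of fragment 105592 (-0.23 and -0.0015) were just below the median. Offset 620 of fragment 108941 (0.00071 and -0.16) and offset 1210 of fragment 45748 (-1.23 and 0.0020) were just above it on 1 array.

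An array that was not used to choose the regions gave a check of each condition of the rule. Chosen on the first hybridisation of each fraction, 992 regions qualified. Of these, 922 (92.9%) were in the top 10% on the other 300–800 nt array, while 542 (54.6%) were below the median on the other 100–600 nt array, where the median of all 992 was -0.08. Chosen on the second hybridisations, 690 regions qualified, with 627 (90.9%) in the top 10% and 548 (79.4%) below the median on the remaining arrays. Over all regions, 92.0% of those in the top 10% on one 300–800 nt array were so on the other, and 68.9% of those below the median on one 100–600 nt array were below it on the other. The share of the chosen regions below the median was thus under this general rate in one direction and above it in the other. These 992 and 690 regions are wider sets than the 503 members.

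The limma fit over all regions gives the same contrast as the rule and is listed only for completeness. It called 3457 of 19805 regions higher in 300–800 nt strands (17.5% at an adjusted p under 0.05) and 500 of the 503 members.

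The members were rich in cytosine and poor in guanine. Cytosine made up 27.7% of their bases against 21.2% over all regions, and guanine 18.2% against 21.0%. A member held on average 5.70 ± 6.75 more cytosines than guanines in its 60 bases (SD, n = 503), against 0.14 ± 6.77 over all 19805 regions. More cytosines than guanines were counted in 394 members (78.3%), against 47.8% of all regions. The lean was shared by all 1822 regions in the top 10% on both 300–800 nt arrays, members included, with an excess of 3.53 ± 6.06 (SD, n = 1822) and more cytosines than guanines in 68.9%. The regions enriched on all 4 arrays had an excess of 0.65 ± 4.90 (SD, n = 167). In the 90 regions of the mirror-image rule, enriched only in 100–600 nt strands, 28.9% had more cytosines than guanines.

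The total of cytosine and guanine differed less. C+G content was 45.9 ± 7.55% in the members (SD, n = 503), 42.2 ± 6.51% over all regions and 53.9 ± 8.59% in the regions enriched on all 4 arrays. In all 1822 regions of the top 10% on both 300–800 nt arrays it was 46.8 ± 7.98%, so the members were not above the set from which they came. CpG dinucleotides, the mark of CpG islands, numbered 0.62 per member and 0.60 in all regions, against 2.50 in the regions enriched on all 4 arrays. No CpG at all was found in 300 members (59.6%), against 57.8% of all regions and 20.4% of those enriched on all 4 arrays. With the rule applied to 1 array of each fraction, the SD over the 4 pairs of arrays was 0.43 percentage points for the C+G difference of 3.76, 0.86 bases for the cytosine excess of 5.56 over all regions and 0.04 for the CpG difference of 0.02. The CpG difference was smaller than this spread. Loess normalisation, which the study's methods also name, was applied within each array as an alternative. It gave 353 members, only 182 of them among the 503. The C+G difference then turned to -1.04 and the cytosine excess over all regions was 2.88.

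Along the probe, the surplus of cytosine lay towards the 5′ end. Array probes of this make are built from their 3′ end, which is fixed to the glass, so the 5′ end is the free end. In members, cytosine was 33.9% of bases 1 to 10 and 34.0% of bases 11 to 20. It fell to 28.6%, 25.03% and 22.2% in the next 3 bins of 10 and was 22.4% in bases 51 to 60. Over all regions each bin held between 21.0% and 21.5%. Guanine went the other way, from 15.9% in the first bin of the members to 19.1% in the last. The regions enriched on all 4 arrays had between 26.8% and 28.9% cytosine in every bin. The 1822 regions in the top 10% on both 300–800 nt arrays had a gradient like that of the members, from 29.6% in the first bin to 23.1% in the last.

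**Figure D2:**
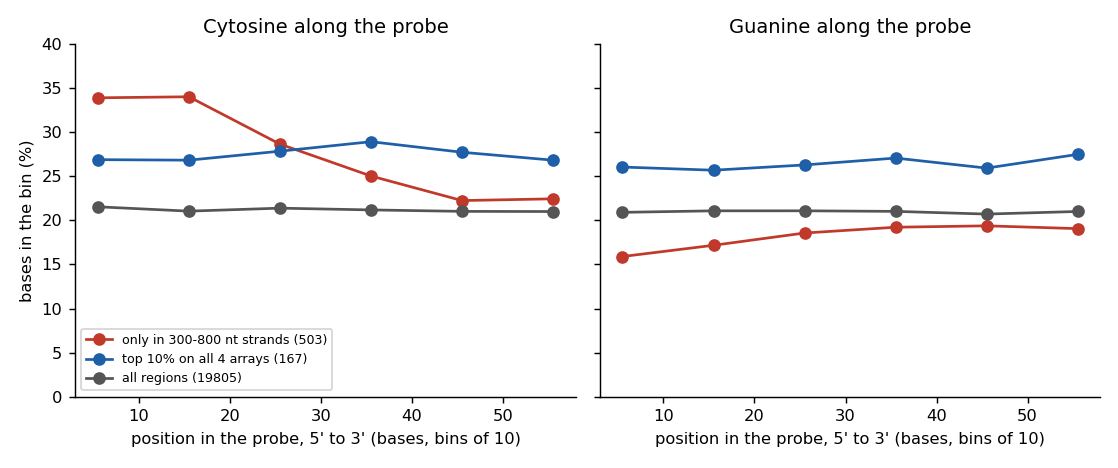
Share of cytosine (left) and guanine (right) in bins of 10 bases from the 5′ to the 3′ end of the probe. In members (red) cytosine fell from 33.9% to 22.4%, while all regions (grey) and the regions in the top 10% on all 4 arrays (blue) were nearly level.

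The words that the members shared followed the same lean. CTCC was present in 52.7% of members, 21.4% of all regions, 36.7% of the 1822 regions in the top 10% on both 300–800 nt arrays, 22.8% of the regions enriched on all 4 arrays and 11.1% of those of the mirror-image rule. Its reverse complement GGAG was present in 16.5% of members and 20.4% of all regions, so the excess was in the probe strand and not in its complement. Among words of 5 bases, CCTCC led with 27.0% of members against 6.17% of all regions, followed by CTCCC with 23.9% against 5.89%. Both contain CTCC. A copy of CTCC began within the first 28 bases in 38.6% of members (11.3% of all regions) and at base 29 or later in 22.9% (11.8% of all regions). In the 1822 regions these shares were 23.3% and 17.7%. Runs of 3 or more cytosines occurred in 73.6% of members, 66.7% of the 1822 regions and 41.6% of all regions, and runs of 3 or more guanines in 31.4% and 40.7%.

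Read the other way, the share of regions that were members climbed with the composition. It was 0.394% of 1522 regions with at least 10 more guanines than cytosines, 1.91% of 4551 regions with 0 to 3 more cytosines than guanines, and 15.8% of 234 regions with at least 16 more cytosines. By copies of CTCC it was 1.53% of 15561 regions without the word, 5.11% of 3565 with 1 copy, 10.96% of 584 with 2 and 19.5% of 77 with 3. Of the 18 regions with 4 or more copies, 4 were members. By copies of GGAG it did not climb, with 2.66% for none and 2.09% for 1 copy.

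**Figure D3:**
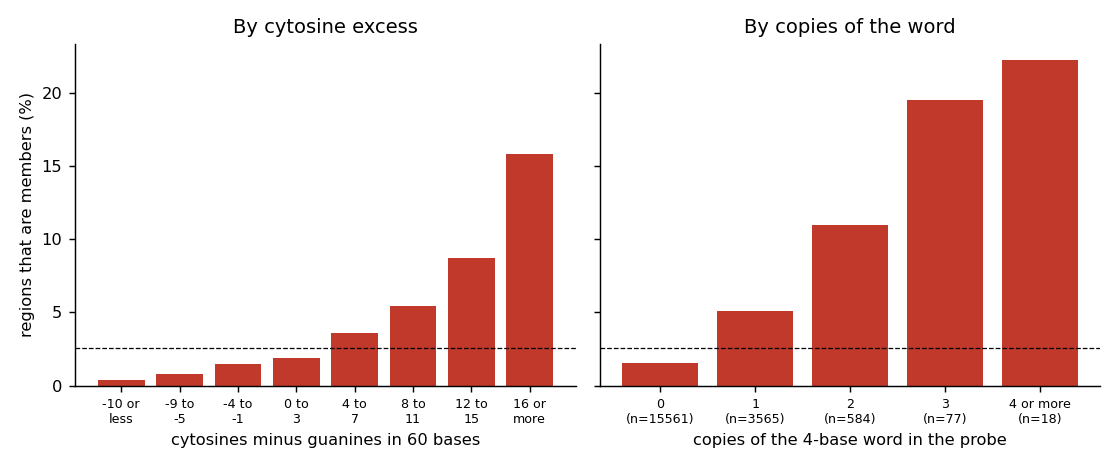
Share of regions that are members, by cytosines minus guanines in the 60 bases (left) and by copies of CTCC (right). The dashed line is the share over all regions, 2.54%, and the bars rise from 0.394% to 15.8% and from 1.53% to 22.2%.

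On all 4 arrays the median ratio moved with the copies of CTCC. From no copy of CTCC to 3 copies, the median log2 ratio rose from -0.07 to 0.54 on each 300–800 nt array. Over the same steps it went from 0.03 to -1.23 on the first 100–600 nt array and from -0.01 to -0.49 on the second. Across all 19805 regions, the cytosine excess correlated with the ratio at r = 0.39 on both 300–800 nt arrays, -0.25 on the first 100–600 nt array and 0.22 on the second. The 2 hybridisations of the shorter strands thus differed in the sign of r. This is a description across regions that share arrays and are no replicates. Their relation to cytosine excess was not a straight line. With at least 16 more cytosines than guanines the median ratio was -1.14 and -0.32 on the 100–600 nt arrays. With 0 to 3 more it was 0.09 and 0.13. Cytosine excess also rose with brightness, with r between 0.316 and 0.498 for the log2 processed genomic DNA signal of the 4 arrays.

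The members were bright regions. Their median genomic DNA signal stood above that of all regions by 0.85 and 1.11 (log2) on the 100–600 nt arrays and by 1.19 and 1.13 on the 300–800 nt arrays. Their median nascent strand signal stood above by 0.20 and 0.53 on the 100–600 nt arrays and by 2.65 and 2.67 on the 300–800 nt arrays. On the 300–800 nt arrays the nascent strand signal was 6.29-fold and 6.34-fold that of all regions, and the genomic DNA signal 2.28-fold and 2.18-fold. The nascent folds are totals and not an excess beyond the genomic ones. The Cy3 channel was further above the median of all regions than the Cy5 channel on each of the 4 arrays, which the rule fixes. In the regions enriched on all 4 arrays, the genomic DNA signal of the 100–600 nt arrays lay near that of all regions (-0.09 and -0.06), and it was the nascent strand signal that was higher, by 0.69 and 0.92.

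**Figure D4:**
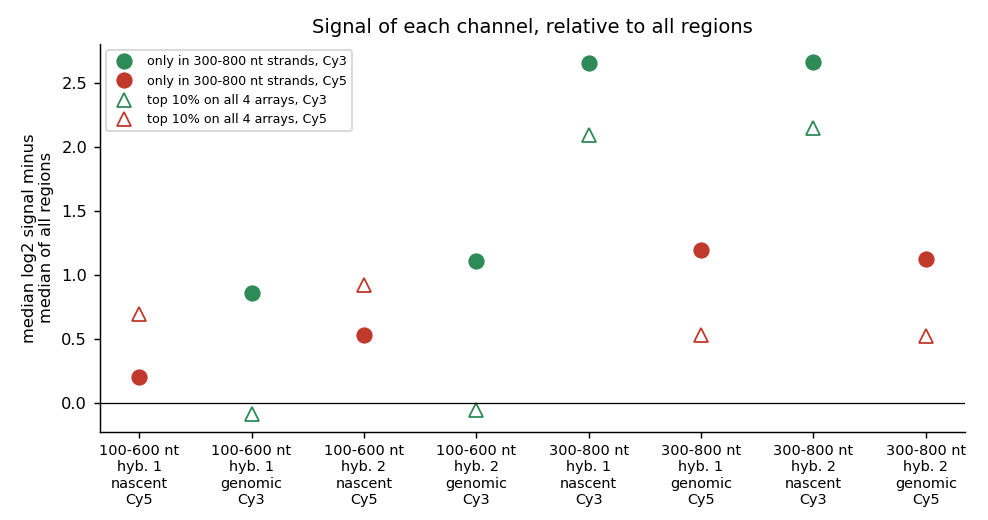
Median log2 processed signal of each channel minus the median over all regions, for the 503 members (filled circles) and the 167 regions in the top 10% on all 4 arrays (open triangles), coloured by dye. In members the Cy3 channel is the higher of the pair on each array, as the rule requires, from 0.85 against 0.20 to 2.67 against 1.13.

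Of the members, 350 (69.6%) were among the brightest 20% of regions on the first 300–800 nt array, by the mean log2 signal of both channels, and 353 (70.2%) on the second. On the 100–600 nt arrays 249 (49.5%) and 271 (53.9%) were in this class. Within it 8.84% and 8.91% of regions were members on the 300–800 nt arrays, against 0.783% and 0.732% of the dimmest 20%. The median ratio itself moved with brightness on the 300–800 nt arrays, from -0.45 and -0.47 in the dimmest 20% to 0.55 in the brightest on both. Between the same classes it went from -0.07 to -0.08 on the first 100–600 nt array and from -0.39 to 0.22 on the second. Loess, which fits the ratio against brightness on each array, kept 36.2% of the members.

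Composition parted the members in brightness. The 394 with more cytosine had genomic DNA signals above all regions by 1.13, 1.44, 1.34 and 1.30 in the order of the 2 shorter and the 2 longer arrays. The 96 with more guanine had -0.17, 0.08, 0.24 and 0.22. Their nascent strand signals on the 300–800 nt arrays were 1.70 and 1.72 above all regions, against 2.84 on both arrays for the cytosine-rich members. The gap between the fractions was similar, with medians of 1.60 and 1.83. An example is the printed region of fragment 106326, with 19 guanines and 10 cytosines, next to Pias3. Its ratios were -0.79 and -0.78, then 2.23 and 2.24, and its genomic DNA signals of 44.7, 185, 822 and 843 were low beside those of the 8 widest-gap members.

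All spots of the members were well above background in both channels on all 4 arrays. On the first 100–600 nt array the software marked 11.9% of their spots as saturated, uneven or outlying, against 7.07% of all spots, and on the second 15.6% against 16.4%. No member spot was marked on the 300–800 nt arrays. Between the pairs of spots of a region on those arrays the median SD of the log2 ratio was 0.06 on each for members and 0.08 for all regions. On the 100–600 nt arrays, where 25 members were spotted 3 times, it was 0.10 and 0.17 for members and 0.09 and 0.13 for the 647 repeated regions. Without marked spots 379 regions were members, 378 of them among the 503.

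Within a fragment, members were about as often near each other as any region was near a member. A further member lay within 800 bp in the same fragment for 22 of the 503 (4.37%), and 4.83% of all regions had a member that near. Counted within fragments, they formed 481 single regions and 11 pairs, with no larger group. Members of different fragments were not joined, also where the study's list puts them close. Those of fragments 43315 and 43316 start at 46132008 and 46132206 on chromosome X. The pairs spanned between 80 and 770 bp. By contrast, 34 of the 167 regions enriched on all 4 arrays (20.4%) had another such region within 800 bp, against 1.85% of all regions. Among the 1822 regions in the top 10% on both 300–800 nt arrays it was 28.6% against 16.3%. Without the second 100–600 nt array, 922 regions were members and 12.9% of them had another within 800 bp, against 8.86% of all regions. The members' share was also the higher one under normexp (5.96% against 4.18%), with C+G content corrected (5.57% against 4.79%) and with C minus G corrected (5.19% against 4.19%), so the direction of this small difference depended on the setting. With a window of 1600 bp in place of 800 bp, the main setting gave 6.56% against 6.48%. Some region, member or not, lay within 800 bp of 70.4% of members and of 64.8% of all regions.

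The pair in fragment 106194 had the largest mean gap. Another member of this fragment, at offset 310, had ratios of -1.38, -0.50, 1.69 and 1.80 and lay more than 800 bp away. In the pair, the ratios at offset 1170 were -1.45, -0.97, 2.18 and 2.13. At 400 bp further on they were -0.81, -0.47, 1.38 and 1.45. In fragment 67565 the region at offset 2630 had -0.36, -0.20, 1.20 and 1.28 and the one at 3060 had -1.72, -1.76, 1.59 and 1.61. All 4 members of these pairs had more cytosine than guanine, by 5 to 14 bases, and all 4 held CTCC.

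Members were spread over the 3 tiled stretches. They numbered 183 of 6842 regions on chromosome 3 (2.67%), 121 of 5882 (2.06%) and 199 of 7081 (2.81%) on the stretches of the X chromosome, and lay in 482 of the 10582 fragments. The cytosine excess was 5.91, 5.81 and 5.43 in the members of the 3 stretches, against -0.29, 0.57 and 0.18 over all their regions.

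Regions beside a member that were not members themselves were little raised. Within 800 bp 934 such regions were found, with mean ratios above those of all regions by 0.04 and 0.13 on the 100–600 nt arrays and by 0.23 on both 300–800 nt arrays. The members themselves averaged 1.49 and 1.51 on the 300–800 nt arrays. In the neighbours the mean was 0.32 and 0.33 at up to 200 bp and 0.25 and 0.24 at 600 to 800 bp. Beside the regions enriched on all 4 arrays it was 0.60 and 0.63 at up to 200 bp and 0.41 on both arrays at 600 to 800 bp. The cytosine excess of the members' neighbours was 1.07 bases and their C+G content 44.4%.

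**Figure D5:**
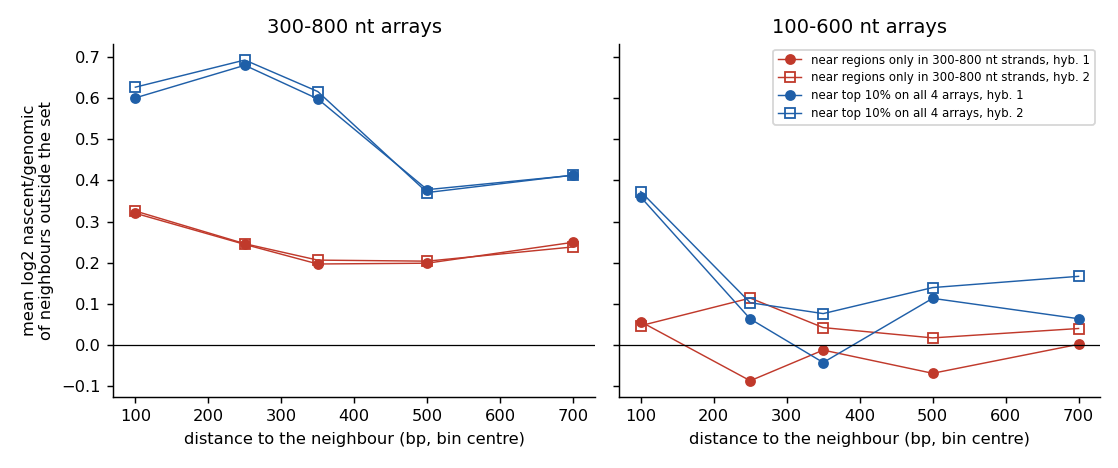
Mean log2 ratio of neighbouring regions outside each set, by distance, on the 300–800 nt arrays (left) and the 100–600 nt arrays (right), 1 line per hybridisation. Neighbours of members (red) lie between 0.20 and 0.33 in the longer strands, and those of regions in the top 10% on all 4 arrays (blue) between 0.37 and 0.69.

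In the limma test of all regions, 204 of these 934 neighbours (21.8%) were called higher in 300–800 nt strands, beside 17.5% of all regions. Without the first 300–800 nt array the shares were 4.71% and 5.17%, and without the second 4.05% and 4.80%, so the neighbours' lead turned when either was left out. The p-values measure only the spread between these arrays.

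Single loci differed in how a member stood against its surroundings. In fragment 67093 the member at offset 870 had ratios of 1.90 and 1.95 on the 300–800 nt arrays. It had 5 regions within 800 bp. Of these, the region 140 bp away had -0.01 and -0.02 and the one 220 bp away -0.45 and -0.54. They held 9 and 12 more guanines than cytosines. In fragment 46252 the region 300 bp from the member at offset 650 had -0.10 and -0.25, against 1.46 and 1.43 for the member, and it held 13 more cytosines than guanines and 1 copy of CTCC. Other fragments had no such step. In fragment 66618 the region 330 bp from the member had 0.56 and 0.42 and the one 570 bp away 1.25 on both arrays, above the member's own 1.14 and 1.16. Cytosines minus guanines were 3 and 8 in these neighbours. In fragment 66889 the regions 350 and 650 bp from the member were high on all 4 arrays, with 1.33, 0.73, 1.30 and 1.09 at the nearer and 0.87, 1.13, 1.70 and 1.59 at the farther, while the member had -1.81, -1.11, 2.46 and 2.47. Here the neighbours' cytosines minus guanines were -11 and -6. Of the 8 members with the widest gap, 3 had no other region within 800 bp in their fragment.

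Of the 125 regions whose 60 bases lie in a RefSeq promoter sequence, 37 were in the top 10% on both 300–800 nt arrays, 9 on all 4 arrays and 1 (0.80%) was a member, beside 2.54% of all regions. That one is the printed region of fragment 106324 at Pias3, with ratios of -1.07, -1.18, 1.11 and 1.17 and 2 copies of CTCC. The 9 members that the study's list puts at promoters lay outside these sequences. The 125 regions thus do not cover every promoter.

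The study's list of probes at its ORIs was drawn from these same arrays, so its overlap with the members is no independent evidence. Of its 150 regions 22 (14.7%) were members, beside 2.54% of all regions, and 37 were in the top 10% on all 4 arrays, beside 0.84% of all regions. In the top 10% on both 300–800 nt arrays were 135 of the 150, which the rule also requires. Members were 22 of these 135, and 503 of all 1822 such regions, so the listed ones were members less often than this class. By the CpG island note of the list, 6 of 70 regions in islands and 16 of 80 outside them were members, while 36 and 1 were in the top 10% on all 4 arrays. The list places 9 of the 22 at promoters, 4 in introns, 3 in exons, 4 between genes and 2 in 3′ UTRs. The widest gap among them, 3.39, belonged to the region in the intron of Notch2, with ratios of -0.64, -0.41, 2.98 and 3.15 and no CTCC but 14 more cytosines than guanines. At Mospd1, in the region of fragment 46013 that the list puts at the promoter, the ratios were -0.67, -0.16, 2.79 and 2.86 with 15 more cytosines than guanines. At Hprt, a purine salvage enzyme, the member of fragment 45326 lay near both thresholds, with -0.07, -0.10, 1.20 and 1.07. An intergenic one, printed earlier from fragment 65490, had 100–600 nt ratios of -0.0044 and -1.80, which differ by more than the typical difference between these hybridisations.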

How the data were processed

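Nascent strands and genomic DNA of PGK12.1 ES cells were compared on 4 two-colour arrays, grouped by the strand size in the labels, 2 per fraction. The authors deposited the scanner software's spot intensities. Background was subtracted by Feature Extraction 7.5.1 on the 100–600 nt arrays, with no dye normalisation, and by version 9.5.3.1 on the others, followed by a linear dye normalisation. A deposited log10 ratio was not used. Such differences between fractions can move a ratio.

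The log2 ratio of nascent over genomic processed signal was taken per spot, repeated spots were averaged, and each array was centred on its median. Control spots and probes outside the tiling were left out. Sequences of the 300–800 nt probes came from the same-named probes of the other arrays. The 300–800 nt file headers name a human grid build, against the mouse probe names, so this match rests on the names. Distances come from offsets within a fragment and were not measured between fragments. No genome was used here. Promoter sequences are RefSeq's (GRCm38.p6).

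Members, lists and named regions were chosen with earlier results of these data known. Regions named are the 8 members of widest gap and the 2 pairs of members with the largest mean gap (no group within a fragment was larger). Members in the study's ORI list, those at the thresholds and those in promoter sequences are also named. Composition, clustering and signals are descriptions without a test, since regions are not replicates. The fractions were tested with limma 3.58.1 under R 4.3.3 (lmFit, eBayes, Benjamini-Hochberg over 19805 regions, threshold 0.05), and the number of arrays limits the precision. Other steps ran in Python 3.11 with numpy 2.4.6 and pandas 2.3.3. The fit and the neighbour search were tested on simulated data. Alternatives were loess, normexp with an offset of 50, marked or dim spots left out, correction for C+G or for C minus G, stricter thresholds, other windows, a replicate block and leaving out each array. Since the 300–800 nt values hold no mean signal, normexp used the median signal there.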

Additional observations from a re-analysis of the deposited data

How the results depend on the processing

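Differences below are members minus all regions, and signals, ratios and neighbours are log2 values. Values that stayed within the SD over the 4 pairs of arrays (counts and the share of neighbours called, within 1.5 times) are not listed. With loess, C+G content turned to -1.04 percentage points, CpG to -0.15 per region, the genomic signal of the 300–800 nt arrays to -0.50 and the nascent signal of the 100–600 nt arrays to -0.29. C minus G was 2.88 bases, the 100–600 nt genomic signal 0.12, the 300–800 nt nascent signal 0.67 and the 300–800 nt neighbours 0.12. The cause was not tested. With normexp, C+G was 5.16, CpG 0.071, C minus G 6.47, the 100–600 nt genomic signal 1.21, the neighbours 0.19 (300–800 nt) and 0.14 (100–600 nt), 1386 regions differed between the fractions and 6.36% of neighbours were called higher. Without marked spots the genomic signal was 1.02 (300–800 nt) and 0.86 (100–600 nt) and the neighbours 0.27 and 0.10. Corrected for C+G content, C+G was 2.13, CpG -0.062, the genomic signal 0.89 and 0.78, the 300–800 nt nascent signal 2.41 and the neighbours 0.15 and 0.052. Corrected for C minus G, an alternative chosen after seeing the data, 462 regions were members, 299 of them among the 503. C+G was then 2.76, C minus G 1.24, the genomic signal 0.66 and 0.39, the nascent signal 2.11 and -0.010 and the 100–600 nt neighbours 0.13.

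The top 5% gave 264 members, with C+G 4.50, genomic signal 1.39 and 1.16, nascent signal 3.22 and 0.56, and neighbours 0.32 and 0.12 (300–800 nt first). The 25th percentile gave 205, with C+G 5.21, CpG 0.10, C minus G 7.15, genomic signal 1.53 and 1.65, nascent signal 3.19 and 0.72 and neighbours 0.28 and 0.11. Neighbours within 400 bp had 0.25 and 0.10. Leaving out each array in turn gave 542 to 922 members, C+G of 3.38 to 3.94, CpG of -0.0024 to 0.13, C minus G of 4.22 to 5.62 and a share within 800 bp of 4.43% to 12.9%. The genomic signal ranged from 0.84 to 1.07 (300–800 nt) and 0.64 to 0.92 (100–600 nt), the nascent signal from 2.36 to 2.56 and 0.24 to 0.50, and the neighbours from 0.18 to 0.22 and 0.081 to 0.13. Between 1069 and 15611 regions then differed between the fractions, and 4.05% to 45.7% of neighbours were called higher, -0.75 to 7.91 points beside all regions. The high counts came without either 100–600 nt array and the low ones without either 300–800 nt array, where a single array stands for its fraction and its spread is taken from the other. The lead of neighbours called higher over all regions, 4.39 percentage points, was -0.46 without the first and -0.75 without the second 300–800 nt array, and CpG turned to -0.0024 without the second. With the replicate block, 7263 regions differed between the fractions in place of 6295, and 26.4% of neighbours were called higher beside 20.2% of all regions. The hybridisation numbers pair nothing that the labels state, and the differences between hybridisations of the fractions correlated with r = -0.0021. The well above background setting gave the same 503 members. With 2 arrays per fraction and dye tied to strand size, no value here can be assigned to strand size alone.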
